A study of Ovis aries with 18 samples.

Results

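The miRNAs described here are the rows that 2 deposited tables of sheep (Ovis aries) uterine small RNA list with the seed of miR-135a. The seed is the short 5′ stretch of a miRNA that pairs with its targets. Rows were taken by the seed name, as every row whose listed miRNA of the same seed is miR-135a or miR-135b. This seed was chosen with earlier results of these data known. The rule found 3 of 495 rows in the table for uterine lumen vesicles and the same 3 of 761 rows in the table for endometrium. They are 19_14302, 3_25056 and 12_6759, all listed under bovine miR-135a, and 0 rows were listed under miR-135b. None carries a sheep miRNA name. Sharing a seed does not make a row that miRNA, so the rows are called by their identifiers.

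Ewes of the P4+RU486 treatment were given 50 mg of progesterone (P4) a day for 14 days and, on days 8 to 14, also 50 mg of RU486 a day. Ewes of the P4 treatment were given the same 50 mg of P4 a day for 14 days, without RU486. All ewes of both treatments were ovariectomized, so the injected hormone replaced that of the removed ovaries. RU486 (mifepristone) blocks the receptor of progesterone. Each treatment had 5 ewes, none of which received the other. The vesicle table holds 4 libraries of P4+RU486 (R01 to R04) and 4 of P4 (P01 to P04), and the endometrium has 5 libraries per treatment. Vesicles came from a flush of the uterine lumen, so the cells that shed them are not known, and fewer vesicles of a kind and less RNA per vesicle cannot be told apart.

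miR-135a and miR-135b are a small family that shares 1 seed. In the human genome, separate genes on different chromosomes give the same mature miR-135a, while miR-135b has its own gene. Human studies describe the family as a repressor of HOXA10, a homeobox gene that the endometrium needs for implantation and that steroid hormones induce, and of APC, a brake on Wnt signalling. These are roles of the named miRNAs, taken from human work, and whether the sheep rows have them was not measured here.

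The miR-135a-seed rows were scarce in vesicles. The values of 19_14302 and 3_25056 were lower in P4+RU486 than in P4, while 12_6759 had 2 reads in all, both in P4+RU486. 19_14302 was at 8.63 normalized CPM in R01, 18.8 in R02, 0 in R03 and 20.9 in R04 with P4+RU486, against 23.6 in P01, 24.3 in P02, 55.0 in P03 and 38.2 in P04 with P4. Every P4+RU486 library lay below every P4 library, though R04 and P01 were close to each other. The same held for 12 (5.24%) of the 229 rows with a mean of at least 10 normalized CPM. The mean was 12.1 ± 9.67 normalized CPM (SD, n = 4) in P4+RU486 and 35.3 ± 14.7 (SD, n = 4) in P4, 2.92-fold lower in P4+RU486. Normalized CPM is the deposited value, reads in proportion to an adjusted library size.

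3_25056 gave nearly the same picture. It was at 8.63 normalized CPM in R01, 18.8 in R02, 0 in R03 and 10.4 in R04 with P4+RU486, against 23.6 in P01, 22.5 in P02, 55.0 in P03 and 38.2 in P04 with P4. Its libraries did not overlap between treatments either, but on nearly the same reads as 19_14302, so this is not separate evidence. The mean was 9.47 ± 7.71 normalized CPM (SD, n = 4) in P4+RU486 and 34.8 ± 15.2 (SD, n = 4) in P4, 3.68-fold lower in P4+RU486.

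**Figure D1:**
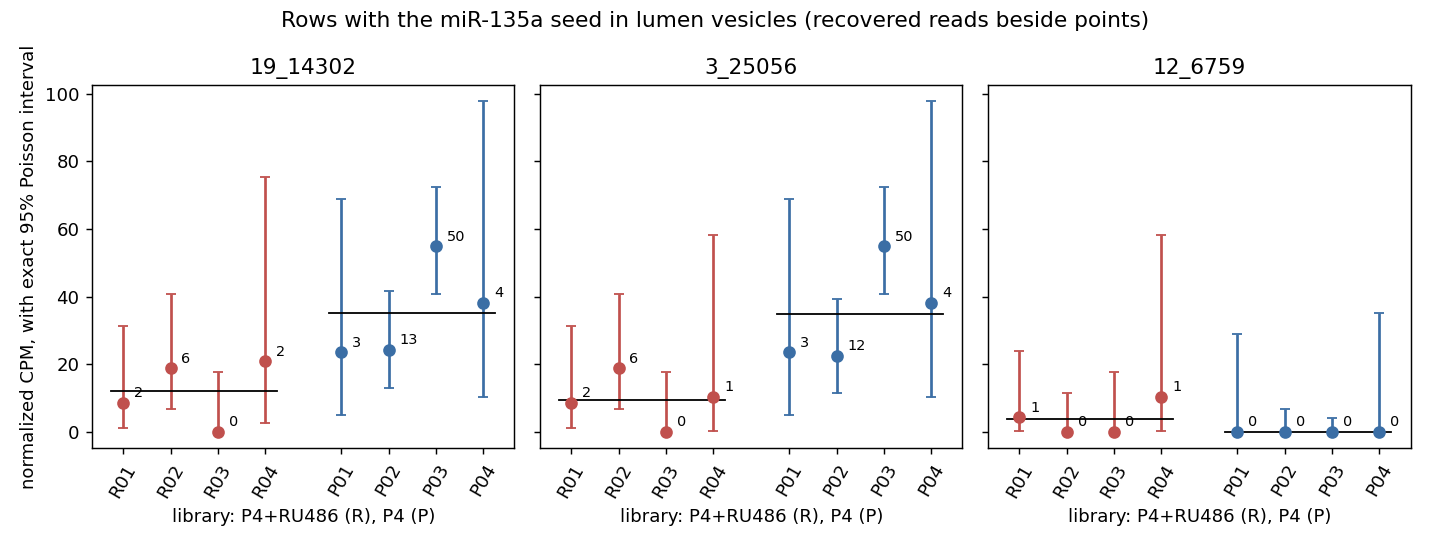
Normalized CPM of the 3 rows with the miR-135a seed in each vesicle library, P4+RU486 (R01 to R04) left of P4 (P01 to P04). Points are libraries with the recovered reads beside them, bars are exact 95% Poisson intervals for counting error only, and lines are treatment means. The P4+RU486 points of 19_14302 and 3_25056 lie below all P4 points, while most intervals overlap, and 12_6759 has 1 read in R01 and in R04 alone.

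These values rest on few reads, which were recovered from the step of the normalized values. For 19_14302, P4+RU486 libraries held 2, 6, 0 and 2 reads (R01 to R04), and P4 libraries held 3, 13, 50 and 4 (P01 to P04). P03, the deepest library, supplied 62.5% of the row's 80 reads and 39.2% of all reads in the table. In P01, 3 reads gave 23.6 normalized CPM with an exact 95% Poisson interval of 4.86 to 68.9, and in R04, 2 reads gave 20.9 with an interval of 2.53 to 75.4. The gap between these libraries was therefore not detectable at this depth. In R03, with 0 reads of 205410, the floor was taken as 3 reads, or 14.3 normalized CPM. The exact 95% Poisson interval of R03 reached 17.6. With R03 set at the floor of 14.3 the P4+RU486 mean of 19_14302 would be 15.7, and P4+RU486 would be 2.25-fold lower than P4. Intervals and floors cover counting error only, since reads carry no molecular identifiers here and need not be separate molecules.

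19_14302 and 3_25056 cannot be counted as separate evidence. Their reads were equal in 6 of 8 libraries and differed by 1 read in the other two, with 13 against 12 in P02 and 2 against 1 in R04. At most 78 of the 80 reads of 19_14302 are matched in number by reads of 3_25056. Over the 8 libraries the log2 values of both rows had a Pearson r of 0.98, given as a description. How reads that match more than 1 locus were counted is not given in the sources used here. Among the 229 rows tested, 20 had values identical to those of another row in every library.

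12_6759 was at or near the limit of detection. It had 1 read in R01 (4.31 normalized CPM) and 1 in R04 (10.4) with P4+RU486, and 0 reads in R02, R03 and every P4 library. The 0 reads of P03 allow up to 3.30 normalized CPM, and those of P04 up to 28.6. At 1 read, R01 had an interval of 0.109 to 24.0 normalized CPM, which overlaps what 0 reads allow in P04. A difference between treatments was therefore not detectable at this depth, and no fold is given.

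Across the vesicle table, 19_14302 and 3_25056 ranked 176 and 180 of 495 rows by mean level, at 23.7 and 22.1 normalized CPM, and 12_6759 ranked 341 at 1.84. Levels are scaled reads per miRNA, so a rank compares reads of molecules of like length. Whether reads follow the amounts of molecules between rows was not measured. R02, the deepest P4+RU486 library, carried 18.8 normalized CPM of 19_14302 on 6 reads (interval 6.89 to 40.9). P02, the deepest P4 library after P03, carried 24.3 on 13 reads (interval 13.0 to 41.6), so this pair of libraries differed by less than the counting error.

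Whether the miR-135a-seed rows differed between treatments was tested with limma on log2(value + 1), fitted over the 229 rows with a mean of at least 10 normalized CPM. Of the 3 rows, 2 passed this filter, and their P4 values carried most of their mean. Neither passed the threshold of an adjusted p of 0.05. The log2 difference, P4+RU486 minus P4, was -2.09 for 19_14302 (SE 0.97, 95% interval -4.19 to 0.01, limma adjusted p = 0.334). It was -2.29 for 3_25056 (SE 0.94, 95% interval -4.34 to -0.25, limma adjusted p = 0.317). In the whole fit 1 row was called (0.437%), and it was neither of these. Before adjustment the limma p was 0.0513 for 19_14302 and 0.0308 for 3_25056, where 16 rows (6.99%) had an unadjusted p under 0.05 and were lower in P4+RU486.

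The exact 2-sided permutation test of each row alone gave p = 0.0286 for both rows, unadjusted, the smallest that 4 libraries against 4 can give. Of all rows tested, 23 (10.0%) had libraries that did not overlap between treatments, 12 of them (5.24%) lower in P4+RU486. Among the 80 rows of similar level, from 10 up to 50 normalized CPM, 6 (7.5%) did so. 19_14302 and 3_25056, with nearly equal reads, are 2 of these 6 rows.

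The size of the difference was large and loosely measured. A log2 difference at or below that of 19_14302 was found in 6 of 229 rows, 19_14302 and 3_25056 included. All 6 were among the 80 rows averaging 10 up to 50 normalized CPM. Differences as large also went upward at that level, such as 2.53 for 18_13301 and 2.28 for 11_5329. The SE of 19_14302 was larger than that of 83.0% of rows. The median SE was 0.51 over all rows and 0.95 over rows of similar level. The median log2 difference over all rows tested was 0.04, and 111 of them (48.5%) had a negative one. On the log2(value + 1) scale the library with no read weighs heavily. Without R03 the log2 difference of 19_14302 was -1.09 (SE 0.65, limma adjusted p = 0.574) and that of 3_25056 was -1.37 (SE 0.67, limma adjusted p = 0.539). The log2 of the ratio of means, which adds no pseudocount, was -1.55 for 19_14302 and -1.88 for 3_25056.

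**Figure D2:**
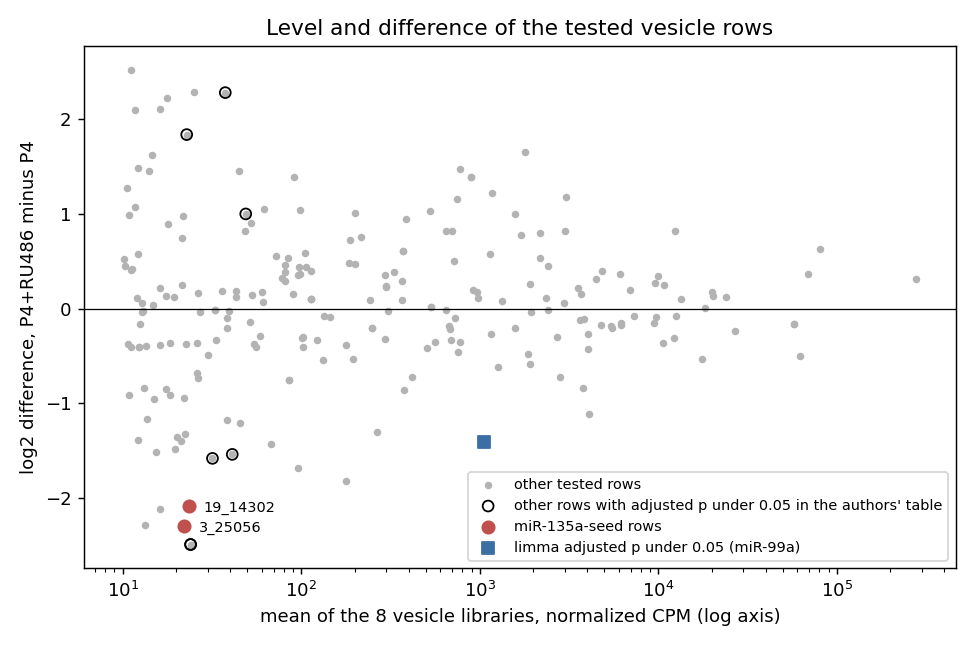
Mean level over the 8 vesicle libraries in normalized CPM (log axis) against the log2 difference, P4+RU486 minus P4, for the 229 rows tested with limma. The miR-135a-seed rows lie at the low end of the level axis near -2, where differences of other rows also spread widely, and the row past the limma threshold (miR-99a) lies at a higher level.

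The authors' deposited table for vesicles gave another answer for the same rows. There the fold runs P4 over P4+RU486, so that a positive fold means lower in P4+RU486. In the authors' deposited table the fold of 19_14302 was 3.39 (adjusted p = 0.00961) and that of 3_25056 was 3.61 (adjusted p = 0.0177). They were the third and the fourth smallest of 495. An adjusted p under 0.05 was given to 9 rows (1.82%) of the authors' deposited table, 6 of them (1.21%) with a positive fold. Folds of this size were common over all 495 rows, those with 2 reads or fewer included. Of the 495 rows in the authors' deposited table, 20.2% had an absolute fold of at least 3.39, and the median absolute fold was 1.63. The share among rows of similar level was not taken. For 12_6759, on its 2 reads, the authors' deposited table lists -7.43 as the fold (adjusted p = 0.58).

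Count tests on the recovered reads did not call the miR-135a-seed rows either. With the edgeR exact test, which called 3 rows (1.31%), the adjusted p was 0.345 for 19_14302 and 0.294 for 3_25056. With the edgeR quasi-likelihood test, which called 1 row (0.437%), it was 0.337 for 19_14302 and 0.296 for 3_25056. With DESeq2, which called 4 rows (1.75%), it was 0.383 for 19_14302 and 0.297 for 3_25056. Under 23 alternatives for 19_14302 and 22 for 3_25056, 0 gave an adjusted p under 0.05, and the lowest was 0.270 and 0.246. The estimate stayed below 0 in each of them. An unadjusted p under 0.05 was reached in 9 alternatives for 19_14302 and in 18 for 3_25056. Which filter, dispersion estimate or test lies behind the authors' adjusted p is not given in the sources used here.

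**Figure D3:**
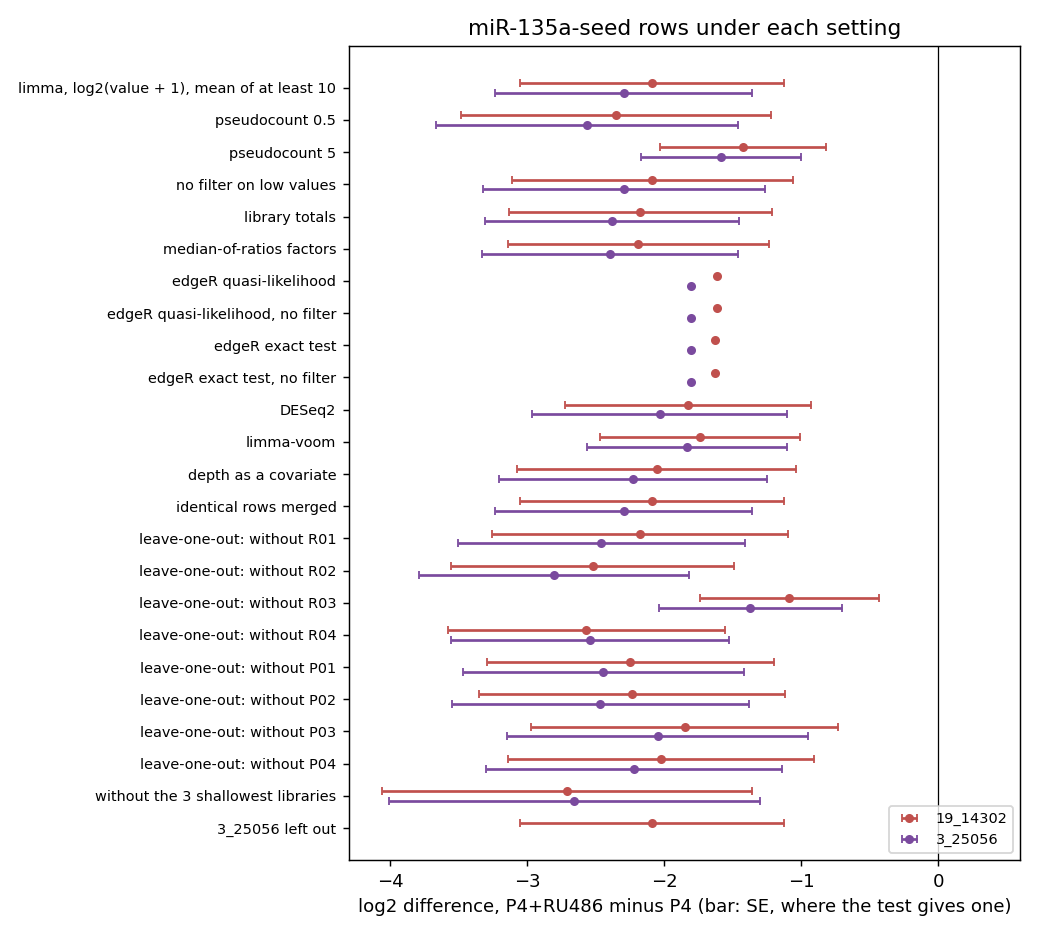
Log2 difference, P4+RU486 minus P4, of 19_14302 and 3_25056 under each setting, with the SE where the test gives one. All points lie below 0, and the points nearest to 0 are those without R03, the library with no read of either row.

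All 9 rows that passed in the authors' deposited table were scarce, with means of 22.1 to 48.9 normalized CPM, and the miR-135a-seed rows hold 2 of the 9 places. None of the 9 passed the limma test (adjusted p from 0.285 to 0.631), where 0.437% of rows were called. Of these 9, 6 had a library with no read. The 9 were picked by a test on these same libraries, so how many overlap is not separate support. Between treatments 4 of the 9 did not overlap, beside 23 of all 229 rows tested (10.0%). These 4 are the pair 19_14302 and 3_25056 and the pair 11_5450 and 24_21621. 11_5450 and 24_21621 have the seed of miR-365-3p and identical values. 11_5450 is also the row next above 19_14302 in mean level. It was at 12.9, 9.39, 14.3 and 0 normalized CPM in R01 to R04, against 47.1, 24.3, 36.3 and 47.7 in P01 to P04. Its log2 difference was -2.49 (SE 0.91, limma adjusted p = 0.285), so a row of matched level had an estimate of like size. The row next below 3_25056, 15_10599 with the seed of miR-4743-3p, differed by -0.95 (SE 0.85, limma adjusted p = 0.704), with treatments that overlapped.

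In the endometrium, the tissue that lines the lumen, the authors' deposited table gave no difference past the threshold for the miR-135a-seed rows. The fold in the authors' deposited table was -1.09 for both 19_14302 and 3_25056, each with an adjusted p of 0.923. Which treatment is on top of these folds is not named, so the sign does not say which was higher. Both rows thus had an equal fold and adjusted p in tissue, to the digits given. In the authors' deposited table for endometrium, 77.0% of rows had an absolute fold of at least 1.09, the median absolute fold was 1.25, and 9 of 761 rows (1.18%) had an adjusted p under 0.05. For 12_6759 the authors' deposited table lists -1.73 for endometrium (adjusted p = 0.71). A test of whether vesicles and tissue differ in response was not made, since the endometrium values per library have column names that match no label.

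The rows whose pattern over the 8 vesicle libraries was most like that of 19_14302, apart from 3_25056, were found by Pearson's r of log2(value + 1) among 227 rows. The first was X_36488, with the seed of miR-96, a miRNA of the miR-183 cluster known from sensory cells, at r = 0.86. It was at 38.8, 62.6, 19.1 and 73.1 normalized CPM in R01 to R04, against 172.9, 151.6, 104.4 and 143.1 in P01 to P04. Its treatments did not overlap, beside 23 of all 229 rows tested (10.0%), and R03 was its lowest library, as for 19_14302. X_36488 was picked for its likeness over these same libraries, so sharing these traits is not separate support. The log2 difference of X_36488 was -1.68, while other tested rows with seeds of that cluster went the other way. These were 5_29334 (seed of miR-96) at 0.54, and JH923873.1_37347 and JH923873.1_37351 (seed of miR-183), both at 0.61. None of these tested rows passed the limma threshold. JH923873.1_37345 and JH923873.1_37349 (seed of miR-96) fell under the filter and were not tested. Both had 1, 6, 0 and 1 reads in R01 to R04, and 0, 7, 5 and 1 in P01 to P04. Their identifiers share a prefix with the miR-183-seed rows, while that of X_36488 does not. Next came 12_6721 and 12_6717, with the seed of miR-29b, a repressor of collagen genes, with identical values and r = 0.83. They averaged 71.4 ± 56.5 normalized CPM (SD, n = 4) in P4+RU486 and 99.3 ± 18.9 (SD, n = 4) in P4. 11_5301, with no listed seed, had r = 0.81, and 5_30300, with the seed of miR-874, had r = 0.80. All these rows were lowest in R03, or at 0 there together with another library. The likeness rests on that library in large part: without R03, 2 of the 5 rows were still among the first 5, and by rank (Spearman's rho) 1 of them was. The median r over all 227 rows was -0.01, and the libraries share their depth and scaling across rows.

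**Figure D4:**
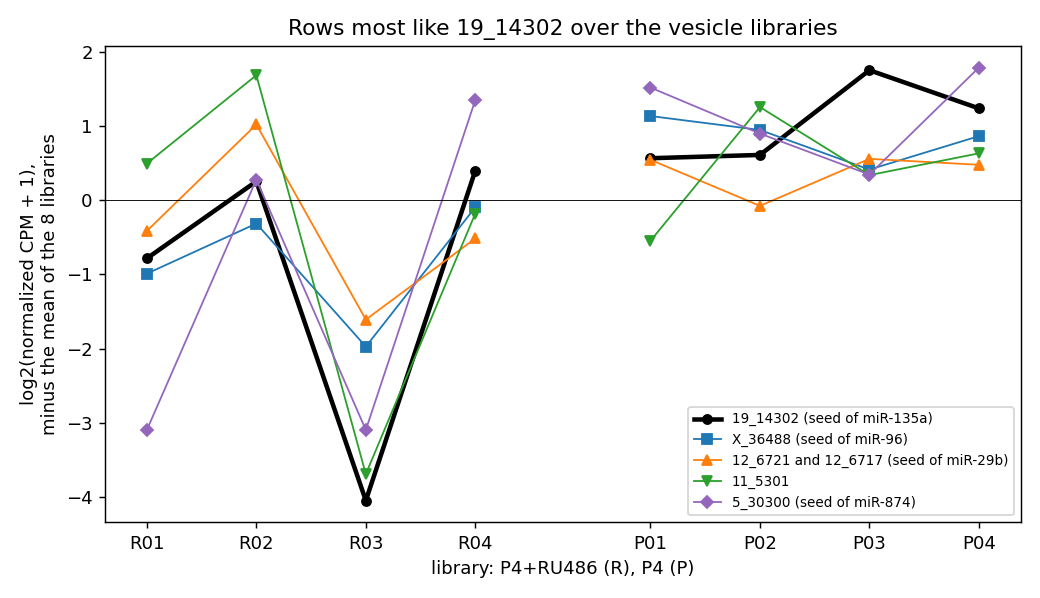
Log2(normalized CPM + 1) minus the mean of the 8 libraries for 19_14302 and the rows most like it, P4+RU486 (R01 to R04) left of P4 (P01 to P04). Libraries have no order within a treatment, and lines only join points of a row. R03 is the lowest library of 19_14302 and of X_36488, and most P4 points lie above the row means.

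Since the miR-135 family is known for HOXA10, the miRNAs encoded within HOX gene clusters were listed beside it (miR-10a, miR-10b, the miR-196 pair and miR-615). The table holds 4 such rows, all tested, of which 0 passed the limma threshold, beside 0.437% of all rows. 1 had a negative and 3 a positive log2 difference, with a median of 0.25, beside 0.04 over all rows. The negative one, 3_26586 with the seed of miR-615-3p, was at 8.63, 15.7, 4.78 and 0 normalized CPM in R01 to R04, against 31.4, 16.9, 13.2 and 38.2 in P01 to P04. Its log2 difference was -2.11 (SE 0.97, limma adjusted p = 0.334), with 1 P4 library, P03, below R02. 3_26587, with the seed of miR-196a, a miRNA that cleaves HOXB8 transcripts, differed by 0.40 on the log2 scale (SE 0.51, limma adjusted p = 0.814). 3_25054, with the seed of miR-1251, was chosen after its values were seen because its identifier is numbered next but one to 3_25056. It had 1 read in all, in P03, so whether it varies with 3_25056 cannot be seen at this depth.

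Markers of other cell types were summed per library to show what else varied among the vesicles. The liver or plasma list had rows for 2 of 4 entries, with none listed under miR-122 or miR-192. It summed to 104.4 to 138.0 normalized CPM in P4+RU486 and 153.5 to 440.0 in P4, without overlap. Listed names were matched, so 21_20031, listed under miR-215, which shares its seed with miR-192, was left out. 21_20031 averaged 984.4 normalized CPM, with a log2 difference of 0.12 (limma adjusted p = 0.913). The sum with 21_20031 was not taken, so the lack of overlap holds for the 2 matched rows alone. These 2 rows did not go the same way. 19_14926, with the seed of miR-885, was at 62.6 to 94.9 in P4+RU486 and 104.8 to 416.4 in P4, without overlap (limma adjusted p = 0.109). miR-194 was at 41.8 to 65.8 in P4+RU486 and 23.6 to 89.0 in P4, with overlap (limma adjusted p = 0.913). The leukocyte list was at 2286 to 5094 in P4+RU486 and 2512 to 14818 in P4, and the epithelial list at 15180 to 21053 in P4+RU486 and 8965 to 35369 in P4. The erythroid, smooth muscle, stroma and ciliated lists also overlapped between treatments. 0 of the tested marker rows of these lists passed the limma test, where 1 of all 229 rows did (0.437%). At that share, 0 calls do not show that the lists were stable. Library depth was 101186 to 328453 reads in P4+RU486 and 97202 to 1062646 in P4. The part of these in the difference of the miR-135a-seed rows was not tested, apart from depth: with it as a covariate the log2 difference was -2.05 (SE 1.02, limma adjusted p = 0.303) for 19_14302 and -2.23 (SE 0.98, limma adjusted p = 0.254) for 3_25056.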

How the data were processed

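Small RNA was sequenced from lumen vesicles and endometrium (Illumina TruSeq libraries, per the labels' protocols). The submitters' processing notes name cutadapt 1.11, sheep build Oar_v3.1 and edgeR. No aligner, locus caller or read filter is named in these sources. Vesicle values were deposited as a normalized signal, per the file headers and the values: whole multiples of 1 step in 100% of values per library (tolerance 0.1 read), from which reads were recovered, 97202 to 1062646 per library. The deposited tables also give the authors' signed fold and adjusted p-value. The 10 endometrium value columns match no label and were not used.

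limma 3.58.1 (trend, R 4.3.3) on log2(value + 1) was fitted over the 229 rows averaging 10 or more, with p-values adjusted by Benjamini-Hochberg (threshold 0.05). edgeR 4.0.16 and DESeq2 1.42.0 were run on recovered reads as alternatives. Tests were also run on simulated reads in which most rows were changed, unlike in these data. That run does not show their power for rows of few reads. The members and lists were chosen with earlier results of these data known. The text names every row with the miR-135a or miR-135b seed, the 5 rows most like 19_14302, the rows next to the members in level, the HOX list and, as counts, the authors' passing rows. Marker rows were matched on the name or the seed name. Treatments were not paired. No sequences are shown, since none were used here.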

Additional observations from a re-analysis of the deposited data

Results flagged for a closer look

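The rows 12_6721 and 12_6717, with the seed of miR-29b and identical values, had 1 P4 library far from the others. P02 was at 71.1 normalized CPM, while P01, P03 and P04 lay between 104.9 and 111.0. Its gap took 0.848 of the range of the 4 libraries, more than Dixon's 95% critical value for 4 libraries. The pair holds 1 signal, so this counts once. No miR-135a-seed row had such a library in either treatment. Chance flags about 1 in 20 groups, and 27 groups were looked at, so 1 such flag is about what chance gives.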

How the results depend on the processing

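Neither 19_14302 nor 3_25056 changed its direction or its side of the threshold under any alternative run, with log2 differences of -2.71 to -1.09 and -2.81 to -1.37. With 1 library left out these were -2.57 to -1.09 and -2.81 to -1.37. Over all rows, limma called 0 rows higher (17 at an unadjusted p under 0.05) and 1 lower. Higher and lower calls were 3 and 3 (6 in all) with the edgeR quasi-likelihood test without a filter, 1 and 2 (3) with the edgeR exact test, 1 and 3 (4) with DESeq2, 4 and 2 (6) once depth was a covariate, and 2 and 0 (2) without the 3 shallowest libraries, chosen after seeing the data. With 1 library left out, 0 rows (without R01, R03, R04 or P04) to 2 rows (without P02) were called, all lower. The cause was not tested. Of the 5 rows most like 19_14302, 3 were among the first 5 with a pseudocount of 5, 1 by Spearman's rho, and 2 to 5 with 1 library left out. Among rows averaging 50 or more normalized CPM neither member has a value, and 12_6759 could be fitted only without a filter, where it did not pass. Depth limits all 3 rows. No paired analysis was possible because the treatments were given to different ewes and the vesicle columns do not name the ewe.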
